A study of Homo sapiens with 15 samples.

Results

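The early effect of THZ1 on the transcripts of pancreatic cancer cells was read by setting 3 libraries of cells given 100 nM THZ1 for 4 h against 3 libraries of cells given 0.1% DMSO, the solvent. These are 6 of the 15 libraries of the series, which also holds THZ1 for 24 h and YKL-5-124 for 4 h and 24 h, each at 100 nM and in 3 libraries. All cells were PATU-8988T, an established human pancreatic cancer line, and the molecule sequenced was total RNA. For DMSO the labels give no time. Apart from a low-count filter over all 5 groups, no gene was chosen for testing by its value. Of 58676 genes in the table, 30731 had at least 1 count and the 14461 that passed this filter were tested. Of these, 12212 were protein-coding. Whether the numbered replicates were separate cultures is not stated, and a p-value here reflects the spread among the libraries at hand.

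THZ1 is a covalent inhibitor of CDK7 that also acts on CDK12 and CDK13, and YKL-5-124 is a covalent inhibitor selective for CDK7. CDK7 is the kinase of the CDK-activating complex within TFIIH, which phosphorylates the tail of RNA polymerase II early in transcription, while CDK12 and CDK13 phosphorylate that tail during elongation. When new synthesis stops, the transcripts with the shortest lives are lost first, and long-lived ones, such as those of ribosomal proteins and of the respiratory chain, keep their level for longer. In bulk RNA of this kind, fewer cells of a type and less RNA per cell cannot be told apart, and a normalised count shows a share of the library and not an amount per cell.

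The libraries held 18464691 to 21749763 counts in THZ1 4 h and 19651529 to 20517571 in DMSO. Values below are CPM, shares of a library after TMM scaling, which sets the middle of the genes at no change. Over all genes the median log2 fold change was -0.25 with library totals as the scaling and -0.51 with ribosomal protein mRNAs as the reference. Within each group, THZ1 4 h replicate 1 and DMSO replicate 2 stood apart in the slope of level on transcript length, at -0.103 and 0.0780. The long MKI67 transcript, for example, was counted at 10.9, 337 and 89.4 CPM in THZ1 4 h and at 22.3, 454 and 28.6 CPM in DMSO. Counts of at least 5 calls in a gene group or bin that changed by over 1.5 times without these 2 libraries are given both ways. The libraries then left had length slopes of 0.0677 and 0.0348 in THZ1 4 h and -0.0401 and -0.0379 in DMSO. That setting thus favours higher levels of long transcripts in THZ1 4 h and is no neutral check. The part this takes in the changed counts was not tested. Ribosomal protein genes took 12.8% ± 1.95 of the counts in THZ1 4 h and 10.7% ± 1.43 in DMSO, and the mitochondrial genome took 1.56% ± 0.524 and 1.01% ± 0.214 (SD, n = 3 libraries a group).

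The markers of the cell line were of a mixed kind. KRT8, a keratin of simple epithelia, had 1391 ± 217 CPM in THZ1 4 h and 1062 ± 139 CPM in DMSO. VIM, the filament protein of mesenchymal cells, had 217 ± 3.9 CPM in THZ1 4 h and 168 ± 4.2 CPM in DMSO (SD, n = 3 each). The ductal keratin KRT19 had 0 counts in all 6 libraries, where 3 counts in a library make at most 0.159 CPM, and the epithelial cadherin CDH1 had 0.234 CPM in THZ1 4 h and 0.237 CPM in DMSO. Summed markers of other cell types were low in every library, with at most 3.18 CPM over 6 fibroblast genes, 1.63 over 3 endothelial genes, 0.421 over 4 immune genes, 0.116 over 4 islet genes and 0.0531 over 4 acinar genes.

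Far more genes fell steeply than rose steeply. With an adjusted p under 0.05 in edgeR's quasi-likelihood test as the rule for a call, 3630 genes (25.1% of those tested) were lower in THZ1 4 h than in DMSO and 2439 (16.9%) were higher. At a fold of at least 2 there were 2458 genes lower (17.0%) and 109 higher (0.754%), or 549 higher without THZ1 4 h replicate 1 and DMSO replicate 2. At a fold of at least 4 there were 1020 lower and 27 higher, and at a fold of at least 16 there were 100 lower and 9 higher. In 3517 of the genes called lower and 2252 of those called higher, the 3 THZ1 4 h libraries did not overlap the 3 DMSO libraries. An exact permutation test of 3 libraries against 3 cannot give a p below 0.1 for a single gene, so calls rest on the fit across all genes. The split of the calls follows the scaling, with 583 higher and 4631 lower under library totals and 29 higher and 5512 lower with ribosomal protein mRNAs as the reference.

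**Figure D1:**
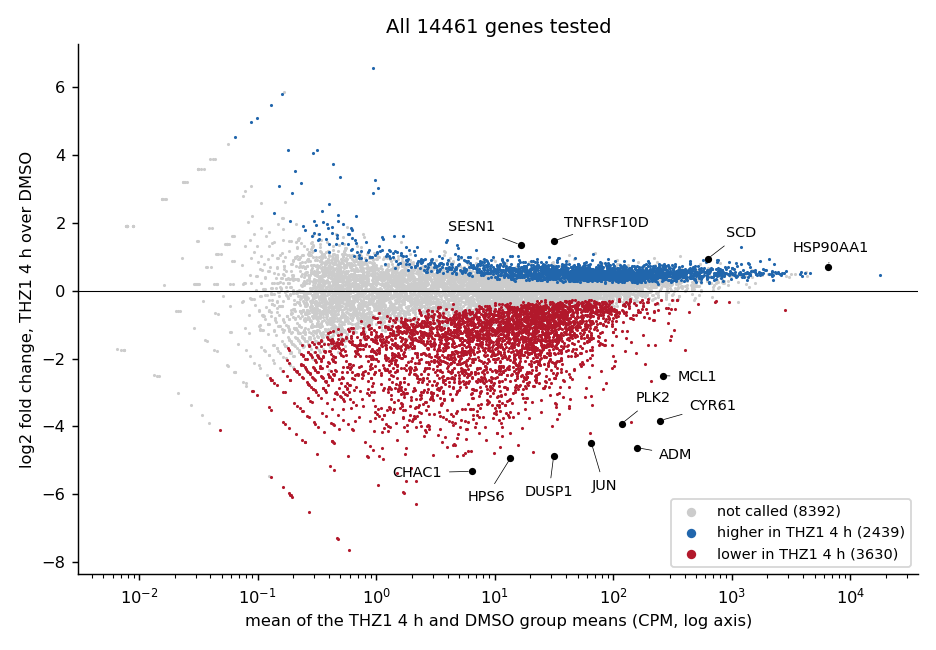
Each point is 1 of the 14461 genes tested, with the mean of the THZ1 4 h and DMSO levels (CPM, log axis) across and the log2 fold change of THZ1 4 h over DMSO up the page, coloured by the call. The 3630 genes called lower reach far down, below a log2 of -4 at levels up to about ADM, while from about 5 CPM up most of the 2439 called higher lie in a thin band above 0. The blue points above a log2 of 2 are 27 scarce genes, all at levels near 1 CPM or under.

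The promoters of the genes that fell most steeply differed in make. Of the 15 genes with the largest falls, 3 hold the CCAAT-box letters CCAATC, on either strand, in the 120 bases before their start (CHAC1, MIEF2 and ETAA1), and 3 hold the TATA-box letters TATAAA 45 to 16 bases before it (DUSP1, PPP1R10 and ADM). Those 6 stretches are shown because they belong to the genes on which the following values turn; they are from RefSeq on GRCh38.p14, are read 5′ to 3′ on the gene's strand and end at the base before the start, and the capitals mark these motifs. CHAC1 lies at chr15:40953351-40953470 (plus strand), MIEF2 at chr17:18260542-18260661 (plus), ETAA1 at chr2:67397213-67397332 (plus), DUSP1 at chr5:172771196-172771315 (minus), PPP1R10 at chr6:30617244-30617363 (minus) and ADM at chr11:10304953-10305072 (plus). The shorter letters CCAAT, on either strand and without the final C, also stand unmarked before PPP1R10, HLX and JUN.
CHAC1: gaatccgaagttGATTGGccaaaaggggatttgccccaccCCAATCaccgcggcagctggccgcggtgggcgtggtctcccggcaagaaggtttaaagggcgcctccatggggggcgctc
MIEF2: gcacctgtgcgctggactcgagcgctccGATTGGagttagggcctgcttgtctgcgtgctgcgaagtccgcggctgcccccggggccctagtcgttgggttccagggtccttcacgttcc
ETAA1: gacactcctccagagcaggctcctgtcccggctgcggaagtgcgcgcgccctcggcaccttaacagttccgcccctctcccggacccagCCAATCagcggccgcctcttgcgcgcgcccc
DUSP1: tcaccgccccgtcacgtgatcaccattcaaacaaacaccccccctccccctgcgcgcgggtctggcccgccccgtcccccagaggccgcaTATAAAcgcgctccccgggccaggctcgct
PPP1R10: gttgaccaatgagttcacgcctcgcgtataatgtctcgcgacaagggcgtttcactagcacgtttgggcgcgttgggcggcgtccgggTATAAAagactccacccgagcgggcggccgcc
ADM: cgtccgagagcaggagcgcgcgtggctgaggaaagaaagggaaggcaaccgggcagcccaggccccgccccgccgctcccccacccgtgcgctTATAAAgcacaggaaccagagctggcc

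Over 9480 matched promoters of 300 bases (77.6% of the protein-coding genes tested), CCAATC was found on either strand in 19.9% of all, in 24.1% of the 1694 genes at least 2-fold lower and in 34.3% of the 242 genes at least 8-fold lower. It was found in 19.8% of the 1811 genes called higher. Leaving out zinc finger families, the share was 32.2% of the 177 genes at least 8-fold lower and 19.5% of all. The ETS-type letters ACTTCCGG, on either strand, were in 13.2% of the genes at least 8-fold lower and 9.03% of all. Without zinc finger families these ETS shares lay close together, at 9.04% of the 177 genes at least 8-fold lower and 8.59% of all. The cAMP-response letters TGACGTCA were in 2.89% of the steep falls and 3.22% of all, and the E-box letters CACGTG in 9.92% and 10.1%. The TATA-box letters TATAAA were rare, in 2.89% of the genes at least 8-fold lower, 2.24% of those at least 2-fold lower and 1.498% of all. These shares describe letters in a window and not binding sites.

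Among called protein-coding genes averaging at least 5 CPM whose libraries did not overlap, the 15 largest falls were each of over 16-fold. Transcripts of DUSP1, a phosphatase that switches MAP kinases off, stood at 2.28, 2.17 and 1.72 CPM in THZ1 4 h, against 67.5, 44.6 and 70.3 CPM in DMSO. ADM, the vasodilator peptide adrenomedullin, stood at 13.2, 11.8 and 12.3 CPM in THZ1 4 h and 345, 287 and 290 CPM in DMSO. JUN, a subunit of the AP-1 transcription factor, stood at 5.55, 7.16 and 4.10 CPM in THZ1 4 h and 110, 146 and 120 CPM in DMSO. In all of these genes the THZ1 4 h libraries lay close together. That they lay below every DMSO library was a condition of the choice. The log2 fold change was -4.88 ± 0.24 for DUSP1, -4.63 ± 0.17 for ADM and -4.49 ± 0.21 for JUN (SE; adjusted p 1.29e-09, 1.27e-10 and 1.19e-09, edgeR quasi-likelihood with Benjamini-Hochberg adjustment).

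HPS6, FADD, PPP1R10 and CHAC1 were among these falls as well. HPS6, a subunit of the BLOC-2 complex of lysosome-related organelles, had 1.52, 0.477 and 0.558 CPM in THZ1 4 h, against 24.3, 25.5 and 29.2 CPM in DMSO (log2 -4.93 ± 0.30, adjusted p 7.36e-09 in the edgeR test, and -5.65 without THZ1 4 h replicate 1). FADD, the adaptor between death receptors and caspase-8, had 0.759, 0.796 and 0.512 CPM in THZ1 4 h and 20.3, 16.7 and 19.8 CPM in DMSO (-4.77 ± 0.26, edgeR adjusted p 2.50e-09). PPP1R10, a nuclear partner of protein phosphatase 1 that acts in transcription termination, had 1.23, 1.75 and 1.54 CPM in THZ1 4 h and 41.5, 40.5 and 39.1 CPM in DMSO (-4.74 ± 0.20, edgeR adjusted p 3.64e-10). In each, the THZ1 4 h libraries sat at a small fraction of the DMSO level. CHAC1, which degrades glutathione and is known as a target of the stress factor ATF4, had 0.759, 0.106 and 0.0465 CPM in THZ1 4 h and 16.9, 6.62 and 14 CPM in DMSO. Most of its remaining counts were in THZ1 4 h replicate 1, and its log2 fold change of -5.32 ± 0.54 was -7.29 without that library. MIEF2, a mitochondrial fission factor, was at -4.54 ± 0.16 and ETAA1, an activator of the ATR kinase, at -4.39 ± 0.21 on the log2 scale.

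The other 6 of the 15 largest falls ranged from -4.84 to -4.37 on the log2 scale. They were PPP1R3D, which targets protein phosphatase 1 to glycogen, IRF2BP2, a transcriptional corepressor, HLX, a homeobox factor, FRAT2, a GSK3-binding protein, AP5B1, a subunit of the AP-5 adaptor, and SPATA2L. FRAT2 was at -4.72, and at -5.44 without THZ1 4 h replicate 1. PPP1R10, PPP1R3D and SPATA2L overlap other tested genes (MRPS18B, FAM217B and CDK10), and their reads cannot be told fully apart because no source used here states whether counting used the strand. Of these 15 genes, 10 have no more than 3 exons and 4 have a single exon. None of the 15 lost its call under any alternative.

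Among transcripts abundant in DMSO (a mean of at least 200 CPM) whose libraries did not overlap, the largest falls after ADM were in PLK2, AMOTL2 and CYR61. PLK2, a kinase of the stress response, had 15.7, 16.5 and 11.6 CPM in THZ1 4 h and 229, 196 and 237 CPM in DMSO (-3.92 ± 0.21). CYR61, a secreted target of the YAP coactivator, had 31.7, 37.2 and 29.9 CPM in THZ1 4 h and 449, 510 and 441 CPM in DMSO (-3.82 ± 0.15). MCL1, the short-lived anti-apoptotic BCL2 relative, had 67.0, 94.2 and 74.7 CPM in THZ1 4 h and 464, 409 and 463 CPM in DMSO (-2.50 ± 0.13). In each of these the THZ1 4 h libraries lay far below every DMSO library, with more left of CYR61 and MCL1 than of DUSP1 or HPS6. AMOTL2, a junction protein that restrains YAP, fell by 3.87, the amino acid carrier SLC38A2 by 2.67, the RNA-binding protein NUFIP2 by 2.15 and the TWEAK receptor TNFRSF12A by 1.84 on the log2 scale.

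Among protein-coding genes averaging at least 5 CPM whose libraries did not overlap, no rise reached 4-fold, and the 27 genes at least 4-fold higher had at most 3.13 CPM in any THZ1 4 h library. TNFRSF10D, a decoy receptor for the death ligand TRAIL, had 34.1, 51.8 and 52.3 CPM in THZ1 4 h and 19.6, 12.5 and 18.1 CPM in DMSO (log2 1.46 ± 0.18, adjusted p 1.24e-05 in the edgeR test). SESN1, a sestrin that restrains the mTORC1 growth pathway, had 18.1, 27.4 and 25.8 CPM in THZ1 4 h and 9.77, 7.66 and 10.7 CPM in DMSO (1.35 ± 0.23, edgeR adjusted p 0.000217). SCD, the desaturase that makes monounsaturated fatty acids, had 531, 908 and 1034 CPM in THZ1 4 h and 452, 481 and 358 CPM in DMSO (0.94 ± 0.22, edgeR adjusted p 0.00346). Every THZ1 4 h library lay above every DMSO library in these genes, and in SCD the lowest THZ1 4 h library was close to the highest DMSO library.

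The other 12 of the 15 largest rises had log2 fold changes of 0.89 to 1.03. They included HMGN5, a nucleosome-binding protein (1.03), GNPTG, which helps to mark enzymes for the lysosome (1.02), MZT2B of the gamma-tubulin complex (0.96), SHTN1 (0.94), HCFC1R1 (0.94), TTC3 (0.93), the secreted protease HTRA1 (0.93), the cytochrome b gene MT-CYB (0.91), the small heat shock protein HSPB1 (0.91), ULK4 (0.90), the peptide trimmer ERAP2 (0.90) and the membrane skeleton protein EPB41L2 (0.89). Of these 15 genes, 2 have no more than 3 exons. All but TNFRSF10D and SESN1 lost their calls with ribosomal protein mRNAs as the reference, and TTC3, HTRA1, MT-CYB and EPB41L2 also lost theirs under library totals. HTRA1 also lost its call without THZ1 4 h replicate 3 and without DMSO replicate 3.

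**Figure D2:**
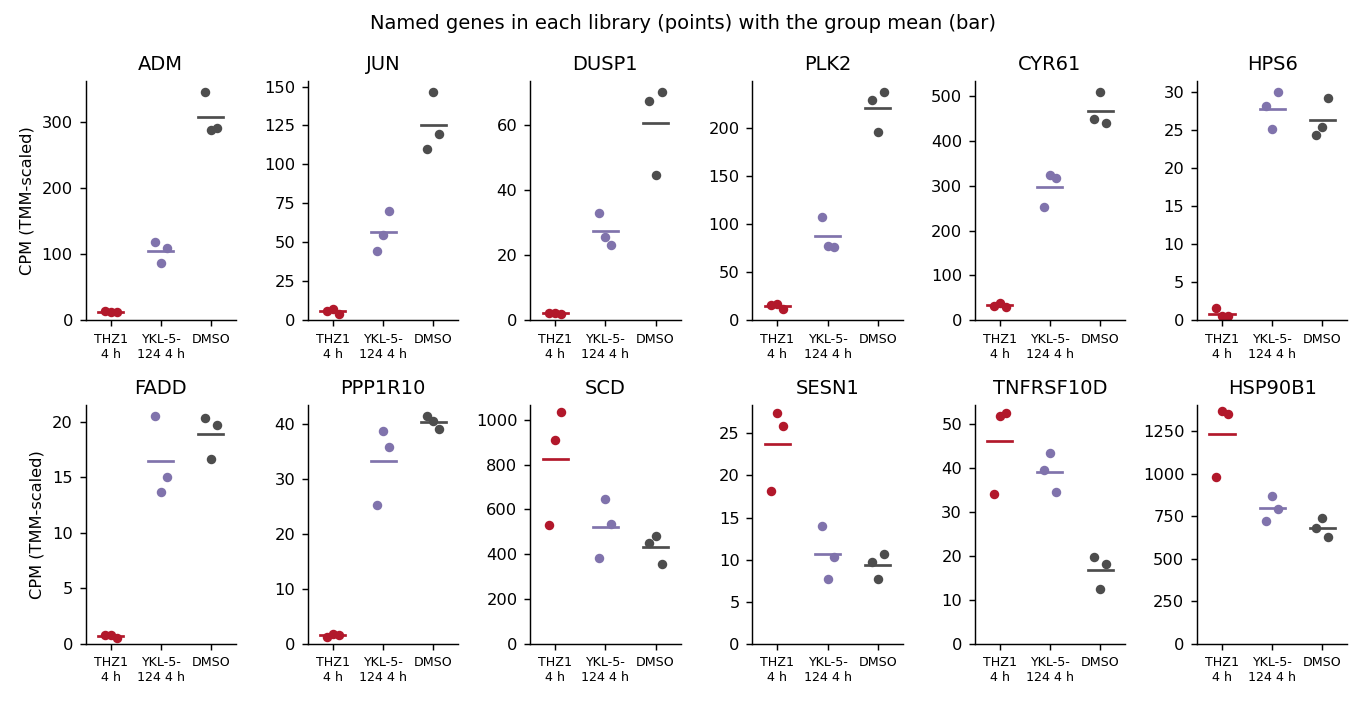
The level of 12 genes (CPM, linear axes that start at 0) in each library is drawn for THZ1 4 h, YKL-5-124 4 h and DMSO, with the group mean as a bar. HPS6, FADD and PPP1R10 are low in THZ1 4 h and at 13.7 to 41.5 CPM in both other groups, ADM, JUN and DUSP1 are lowest in THZ1 4 h and in between in YKL-5-124 4 h, and SESN1 is high in THZ1 4 h alone.

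Among transcripts with at least 200 CPM in DMSO whose libraries did not overlap, the largest rises were all below 1 on the log2 scale. HSP90B1, the HSP90 of the endoplasmic reticulum, had 982, 1368 and 1352 CPM in THZ1 4 h and 678, 741 and 625 CPM in DMSO (0.86 ± 0.13). ITGB1, the integrin beta chain shared by many matrix receptors, had a log2 fold change of 0.82 ± 0.10, the amyloid precursor APP of 0.83 ± 0.15 and the secreted glycoprotein FSTL1 of 0.87 ± 0.23. MT-CO3, a subunit of cytochrome oxidase encoded in mitochondria, rose by 0.88 ± 0.17, and the mitochondrial ribosomal RNA MT-RNR1 by 0.92 ± 0.29. With ribosomal protein mRNAs as the reference all of these lost their calls. FSTL1 and MT-RNR1 also lost theirs under library totals, and MT-RNR1 without any 1 of 4 libraries. At the very top of the table, EEF1A1, the elongation factor of translation, had 20814 CPM in THZ1 4 h and 15029 CPM in DMSO on average (0.47).

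The number of exons ordered the change across the genome. Exons were counted in the transcript of each protein-coding gene with the longest coding sequence in GENCODE 29. Of the 300 single-exon genes tested, 169 (56.3%) were called lower and 15 higher, with a median log2 fold change of -1.06. Of the 1226 genes with 2 to 3 exons, 618 (50.4%) were lower and 91 higher, with a median of -0.77. Of the 1723 genes with over 20 exons, 212 (12.3%) were lower and 392 higher, with a median of 0.19. The 392 higher calls were 656 without THZ1 4 h replicate 1 and DMSO replicate 2, 70 under library totals and none with ribosomal protein mRNAs as the reference. The 3 bins between these ran in the same order, with 33.2%, 23.4% and 20% called lower at 4 to 6, 7 to 12 and 13 to 20 exons and medians of -0.06, 0.09 and 0.10. The share called lower over all genes tested was 25.1%.

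The low end of this order stood in each THZ1 4 h library. From the DMSO mean, the median of log2(CPM + 0.5) over single-exon genes was -0.61, -0.65 and -0.77 in the THZ1 4 h libraries, -0.14, -0.16 and -0.12 in the YKL-5-124 4 h libraries, and 0.02, -0.04 and 0.02 in the DMSO libraries. Over genes with more than 20 exons it was -0.07, 0.35 and 0.22 in THZ1 4 h, -0.09, 0.18 and 0.06 in YKL-5-124 4 h, and -0.09, 0.18 and -0.09 in DMSO. For single-exon genes the THZ1 4 h libraries thus lay apart from the others, while for the genes richest in exons they overlapped both. Without THZ1 4 h replicate 1 and DMSO replicate 2 the medians ran from -1.12 at 1 exon to 0.41 above 20 exons. The libraries then left differ by group in length slope, so this wider range is no check of the order. With library totals or ribosomal protein mRNAs as the reference the order was the same but every median was below 0 (-0.07 and -0.33 above 20 exons).

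Zinc finger genes, a large family that was mostly lower, do not alone make this order. Without 509 genes of the ZNF, ZBTB, ZSCAN, ZKSCAN and ZFP families the medians were -1.06, -0.67, 0.07, 0.10, 0.11 and 0.19 from the fewest exons to the most. The zinc finger genes alone had medians of -2.14 in the 92 with 2 to 3 exons, -1.86 in the 302 with 4 to 6, -1.42 in the 89 with 7 to 12 and -0.85 in the 14 with 13 to 20. In genes that overlap no other tested gene, 57.9% of the single-exon ones and 12.6% of those with over 20 exons were called lower. In genes averaging 5 CPM or more across the 6 libraries the shares were 72.5% and 13.2%.

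**Figure D3:**
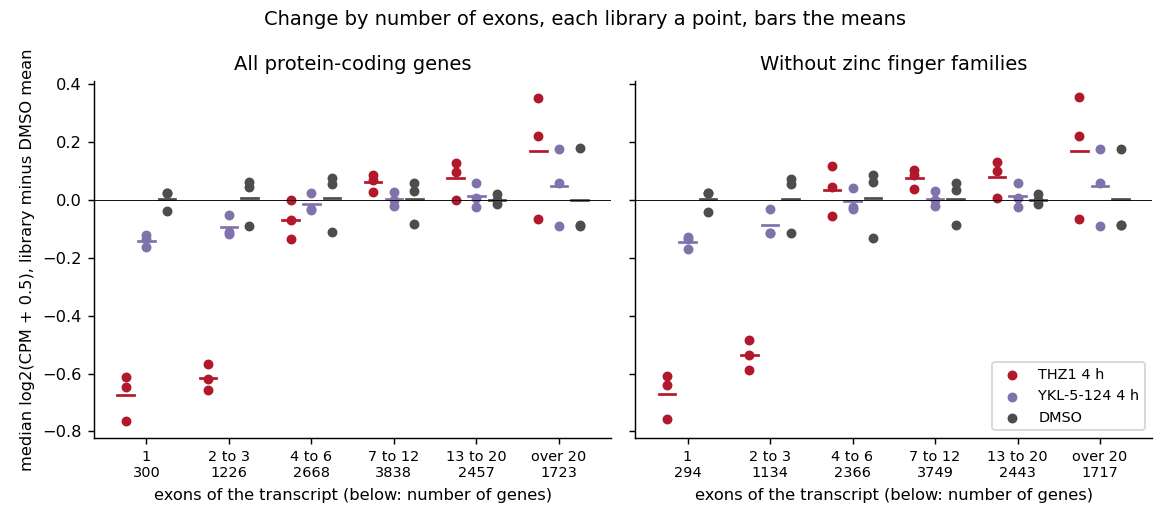
For each bin of exon number (number of genes below it), points give the median over genes of log2(CPM + 0.5) in a library minus the DMSO mean, and bars the mean of the 3 libraries, for THZ1 4 h, YKL-5-124 4 h and DMSO; zinc finger families are left out on the right. The THZ1 4 h points lie at -0.61 to -0.77 for 1 exon and rise to overlap the other groups at higher exon numbers.

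The same contrast stood within most of the families of related proteins that were compared. The comparison took 29 families, each with at least 3 tested members of 1 to 3 exons. In 23 of them the members with 1 to 3 exons had a lower median than those with more (328 and 1485 genes over all 29). The Mediator subunits, which bridge activators and RNA polymerase II, had a median of -2.33 over 5 members with few exons and -0.10 over the other 25. MED9 and MED7, with 2 exons each, fell by 3.37 ± 0.21 and 3.11 ± 0.27 on the log2 scale. F-box genes, which choose targets for SCF ubiquitin ligases, had -1.83 over 7 members and -0.08 over 47. DNAJ cochaperones had -1.43 over 5 and 0.08 over 32, RAB GTPases -0.80 over 8 and 0.18 over 38, and TMEM genes -0.64 over 39 and 0.21 over 136. The medians above 0 are smaller than the shift of -0.51 that ribosomal protein mRNAs as the reference bring to all genes. The difference of the medians was small in PCDH genes (-0.15), MRPL and MRPS genes (-0.13) and RPL and RPS genes (-0.11). The exceptions were the NDUF genes, the COX, UQCR and ATP5 genes, POLR2, DUSP, ATP6V and EIF genes.

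The level of a transcript also separated genes that fell from genes that rose. Levels were taken from the YKL-5-124 4 h libraries, as CPM per kilobase of transcript, so that the grouping used neither THZ1 4 h nor DMSO. Of genes above 50 CPM per kilobase, 75 of 1427 (5.26%) were called lower and 727 (50.9%) higher. The 727 higher calls were 462 without THZ1 4 h replicate 1 and DMSO replicate 2, 244 under library totals and none with ribosomal protein mRNAs as the reference, which gave 277 lower calls in place of 75. Of genes at 1 to 5, 39.9% were lower and 7.46% higher, and of genes at 5 to 15, 33.8% were lower and 17.0% higher. At up to 1 CPM per kilobase 23.7% were lower and 3.34% higher, and counts there are few, so fewer changes can be called. Without the same 2 libraries the higher calls were 187 in place of 84 at up to 1 and 358 in place of 225 at 1 to 5. Within a level, exon number still separated the genes: at 5 to 15 CPM per kilobase 67.0% of the 285 genes with 1 to 3 exons and 23.2% of the 1135 with over 12 exons were lower, zinc finger families left out. Above 50, 10.8% of 157 genes with few exons and 5.71% of 280 with many were lower, while 30.6% and 62.5% were higher (48 and 175 genes, and 31 and 142 without the 2 libraries).

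**Figure D4:**
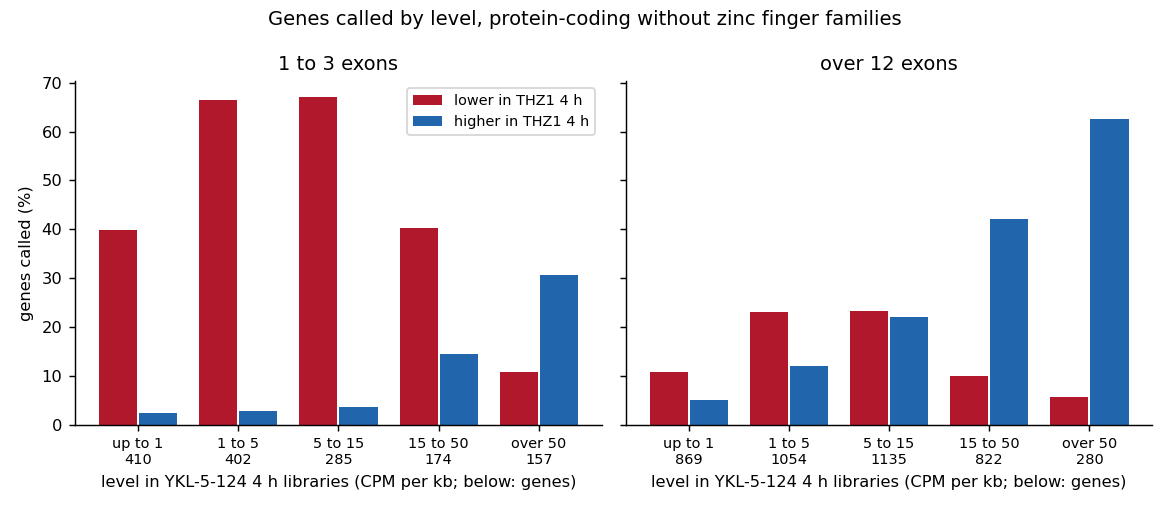
Bars give the percentage of protein-coding genes called lower and called higher in THZ1 4 h than in DMSO, by the level in YKL-5-124 4 h (CPM per kilobase; number of genes below each bin), for genes with 1 to 3 exons and with over 12 exons, zinc finger families left out. The share called lower peaks at 67.0% in genes with few exons and at 23.2% in genes with many, and the share called higher is largest above 50 in both panels, at 30.6% and 62.5% with TMM scaling and all 6 libraries.

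Other properties of the genes sorted the change less. By the span of the gene on the chromosome, the share called lower was 33.8% under 5 kilobases and 13.7% over 150 kilobases. Within genes of 1 to 3 exons without zinc finger families, the median log2 fold change was -0.74 up to 15 kilobases, -0.82 at 15 to 50 and -0.69 at 50 to 150, and 0.10 in the 31 genes above that (-0.13 under library totals). AU-rich letters TATTTAT in the 3′ untranslated region, a signal in short-lived messages, went with more falls. Among genes with untranslated regions over 800 and up to 3000 bases, 29.8% of 2970 with no match, 32.8% of 1179 with 1, 35.5% of 437 with 2 and 40.0% of 195 with 3 or more were lower. By chromosome, the share at least 2-fold lower was 29.7% on chromosome 19, which carries 211 of the 432 ZNF genes tested, and 18% on chromosome 1.

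ZSCAN and ZKSCAN genes, foregut and epithelial lineage factors and SOX genes, all transcription factors, had the 3 lowest medians of the gene groups, followed by the MAP kinase feedback list and the ZNF genes. ZNF genes, most of them KRAB repressors, had 346 of 432 members lower and 8 higher (median -1.79), on chromosome 19 (-1.90 over 211) as elsewhere (-1.46 over 221). ZNF764 kept 3 counts in THZ1 4 h against 248 in DMSO, which is 0.0142 of the DMSO level (exact 95% interval 0.00291 to 0.0420, counting error only). Its log2 fold change was -9.16 without THZ1 4 h replicate 3 and -5.23 without THZ1 4 h replicate 1 and DMSO replicate 2. The exception ZNF738 had 25, 24.7 and 26.3 CPM in THZ1 4 h and 14.9, 16.4 and 14.1 CPM in DMSO (0.74 ± 0.13). In ZSCAN and ZKSCAN genes 19 of 21 were lower and none higher (median -2.55), with ZKSCAN2 at -3.85 and ZSCAN26 at -3.82. In ZBTB genes 30 of 36 were lower and none higher (-1.44), with ZBTB24 at -3.82 and ZBTB6 at -3.35. In these groups no median changed sign under any scaling.

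Lineage and signal-driven factors were mostly lower. In a list of foregut and epithelial lineage factors 8 of the 11 tested were lower (median -2.23; 24 in the list), in SOX genes 7 of 10 (-2.14), in FOX genes 16 of 20 (-1.45), in KLF and SP factors 14 of 17 (-1.66) and in HOX genes 10 of 15 (-1.23), with none higher in any of them. FOXA1, a pioneer factor of endodermal tissues, had 0.380, 0.424 and 0.0931 CPM in THZ1 4 h and 2.40, 3.68 and 2.95 CPM in DMSO (-3.33 ± 0.40). SOX9, a factor of the pancreatic duct, had 0.285, 0.849 and 0.326 CPM in THZ1 4 h and 3.24, 7.82 and 2.95 CPM in DMSO (-3.28 ± 0.50, and -2.41 without THZ1 4 h replicate 1 and DMSO replicate 2). Both were low in DMSO already, and their THZ1 4 h libraries held few counts. KLF2 kept 7 counts against 243 (-4.81, and -6.85 without THZ1 4 h replicate 2), and KLF15 fell by 3.70. FOXC1 and SOX4, each with a single exon, were at -2.37 ± 0.25 and -2.91 ± 0.35. Without THZ1 4 h replicate 1 and DMSO replicate 2, HOX calls went down to 6 of 15 genes.

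Feedback inhibitors and RNA decay factors were also mostly lower. In MAP kinase feedback genes 21 of 27 were lower and none higher (median -1.96). DUSP5, a nuclear phosphatase for ERK, had 7.83, 6.10 and 5.54 CPM in THZ1 4 h and 127, 113 and 120 CPM in DMSO (-4.21 ± 0.13). Activators of mRNA decay had 15 of 26 lower and none higher (-0.68), with BTG2, which recruits a deadenylase, at -3.29 and ZFP36L2, which binds AU-rich elements, at -2.38. In the core circadian clock 11 of 20 were lower and none higher (-1.14), among them TEF at -3.43 and CIART at -3.0. NFKBIA, the inhibitor that NF-kB itself induces, had 8.26, 5.30 and 5.21 CPM in THZ1 4 h and 47.4, 39.6 and 51.2 CPM in DMSO (-2.88 ± 0.23). SOCS3 and IRF1, induced by cytokines, stood at -3.22 and -3.19, while IL6ST, the receptor chain upstream of them, was at 0.65 ± 0.11, a call lost with ribosomal protein mRNAs as the reference.

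Among ubiquitin ligases and their adaptors, which choose what is degraded, most members of 2 families were lower and fewer in 3 others. KLHL and KBTBD genes, adaptors of CUL3, had 21 of 30 lower and 2 higher (median -1.12), with KLHL26 at -4.09 and KBTBD7 at -3.77. TRIM genes had 27 of 39 lower and none higher (-0.99), with TRIM11 at -3.45 and TRIM32 at -3.05. RNF genes had 26 of 63 lower and 4 higher (-0.37), with RNF146 at -2.78. KCTD and BTBD genes had 12 of 28 lower and 3 higher (-0.28), and F-box genes 23 of 54 lower and 5 higher (-0.24). FBXO5, which inhibits the anaphase-promoting complex, had 7.26, 7.37 and 6.56 CPM in THZ1 4 h and 85.0, 68.6 and 79.5 CPM in DMSO (-3.46 ± 0.15). The proteasome subunits (PSM genes), which degrade what the ligases mark, had 12 of 46 higher and 2 lower, with a median of 0.33 that was -0.18 with ribosomal protein mRNAs as the reference. Their higher calls were 7 without THZ1 4 h replicate 1 and DMSO replicate 2, 4 under library totals and none with ribosomal protein mRNAs.

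The machinery of transcription was uneven. CDK7 had 56.0, 42.0 and 41.9 CPM in THZ1 4 h and 67.1, 54.3 and 67.3 CPM in DMSO (-0.43 ± 0.15, edgeR adjusted p 0.0322), a call lost under 7 alternatives. CDK12 was at -0.49 ± 0.18 (adjusted p 0.0422, lost under 9) and CDK13 at -1.02 ± 0.30 (adjusted p 0.0124, lost without THZ1 4 h replicate 1 and without DMSO replicate 2). In TFIIH and the CDK-activating kinase 2 of 9 genes were lower (22.2%, near the 25.1% of all genes tested) and 1 higher (11.1%, against 16.9%). Their median of 0.13 was -0.39 with ribosomal protein mRNAs as the reference and -0.08 without the 2 libraries named above. In elongation kinases and the 7SK complex 11 of 22 were lower and 1 higher (-0.50). MEPCE, which caps the 7SK RNA, had 10.1, 8.33 and 7.12 CPM in THZ1 4 h and 75.7, 78.5 and 78.2 CPM in DMSO (-3.19 ± 0.13).

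Among 3′ end processing factors 10 of 20 were lower and 4 higher (median -0.54). CSTF1, a subunit of the cleavage stimulation factor, had 7.07, 5.62 and 5.03 CPM in THZ1 4 h and 70.3, 50.6 and 59.7 CPM in DMSO (-3.35 ± 0.16). CSTF2T, a single-exon gene in an intron of PRKG1, was at -3.07 ± 0.16. NUDT21, of cleavage factor I, was at 0.60 ± 0.11, a call lost with ribosomal protein mRNAs as the reference. Of the Integrator subunits 3 of 11 were lower (27.3%, near the 25.1% of all genes tested) and none higher, and INTS5, which has 2 exons, was at -4.06 ± 0.27. Polycomb genes had 11 of 29 lower and 2 higher (-0.37), with CBX8 at -3.56. The histone cluster genes had 5 of 45 lower (11.1%, under the 25.1% of all genes tested) and none higher (-0.23). Among the methyltransferases 11 of 21 KMT and SETD genes were lower, and 6 without THZ1 4 h replicate 1 and DMSO replicate 2.

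**Figure D5:**
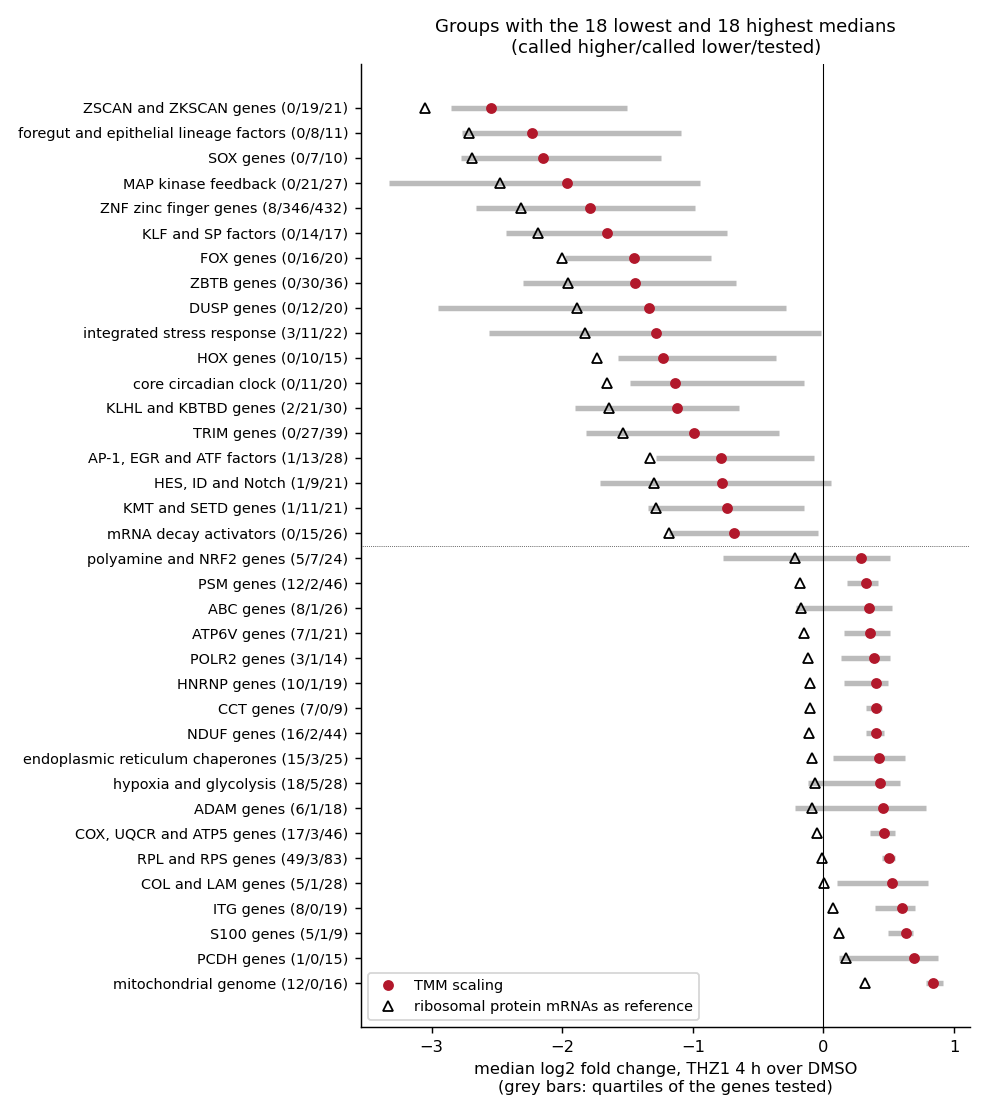
Red points give the median log2 fold change of THZ1 4 h over DMSO in the gene groups with the 18 lowest and 18 highest medians, grey bars the quartiles, and open triangles the median with ribosomal protein mRNAs as the reference. Numbers in brackets are members called higher, called lower and tested. ZSCAN and ZKSCAN genes lie lowest at -2.55, the mitochondrial genome highest at 0.84, and most of the groups with medians above 0 lie below 0 at their triangles.

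Groups with medians above 0 included ribosomal proteins, the respiratory chain, chaperones and integrins. Of ribosomal protein genes 49 of 83 were higher and 3 lower (median 0.50), but 12 were higher without THZ1 4 h replicate 1 and DMSO replicate 2 (0.20), and the median was -0.01 with these same mRNAs as the reference. Of NDUF genes, subunits of respiratory complex I, 16 of 44 were higher and 2 lower (0.41), and 5 were higher without those 2 libraries. COX, UQCR and ATP5 genes had 17 of 46 higher and 3 lower (0.47), and 11 higher without them. The chaperonin CCT genes had 7 of 9 higher and none lower (0.41), and 3 higher without them. The medians of the NDUF, COX and CCT groups were -0.11, -0.05 and -0.10 with ribosomal protein mRNAs as the reference. In each of these groups the count of calls changed by more than 1.5 times with those libraries left out. Under library totals 12 ribosomal protein, 4 NDUF, 9 COX, UQCR and ATP5 and no CCT genes were higher, and with ribosomal protein mRNAs as the reference none was. S100 genes, which encode calcium-binding proteins, had 5 of 9 higher and 1 lower (0.63), and 2 higher without those libraries.

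In the following 4 groups the higher calls were as many or more without those libraries. The libraries then left differ by group in length slope, so these counts do not show that a group is robust. Of endoplasmic reticulum chaperones 15 of 25 were higher and 3 lower with all libraries and without the 2 (median 0.43 both times, -0.09 with ribosomal protein mRNAs as the reference). Of 16 genes of the mitochondrial genome that were tested, 12 were higher and none lower (0.84), and 15 without those libraries (1.25). Integrin genes had 8 of 19 higher and none lower (0.60), and 9 higher and 1 lower without them (0.86). Collagen and laminin genes had 5 of 28 higher (17.9%, near the 16.9% of all genes tested) and 1 lower (0.53), and 12 higher without them (0.97). The medians of the mitochondrial genome, integrins and collagens stayed above 0 with ribosomal protein mRNAs as the reference, at 0.32, 0.07 and 0.01, but no gene of the 4 groups was then called higher. Under library totals 9 chaperones, 5 mitochondrial genes, 3 integrins and no collagen or laminin gene were higher.

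Some pathways held both genes that fell and genes that rose. The genes named were picked as the largest changes each way, so an opposite pair says nothing of the list as a whole. XBP1, a transcription factor of the unfolded protein response, had 8.30, 7.53 and 6.52 CPM in THZ1 4 h and 86.3, 65.9 and 82.0 CPM in DMSO (-3.39 ± 0.16). HYOU1, a chaperone of the same compartment, had 300, 426 and 374 CPM in THZ1 4 h and 200, 255 and 197 CPM in DMSO (0.75 ± 0.16). Of the heat shock genes 9 of 20 were higher and 6 lower (30%, near the 25.1% of all genes tested). Their higher calls were 4 under library totals and none with ribosomal protein mRNAs as the reference. The cochaperone DNAJB1 was at -3.10 ± 0.15 (13.5 CPM in THZ1 4 h and 116 CPM in DMSO on average) and HSP90AA1 at 0.71 ± 0.09 (8125 and 4980 CPM). HERPUD1, which helps to clear misfolded proteins, was at -2.16 ± 0.13, with 20.6, 18.6 and 18.7 CPM in THZ1 4 h and 87.4, 84.8 and 85.6 CPM in DMSO. Each of these rises was below 1 on the log2 scale and each of these falls above it in size.

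Close relatives were among such pairs. SESN2 had 0.996, 1.33 and 0.931 CPM in THZ1 4 h and 13, 9.48 and 14 CPM in DMSO (-3.49 ± 0.22), opposite to its relative SESN1. RHOB, a small GTPase gene with a single exon, had 8.83, 7.43 and 5.35 CPM in THZ1 4 h and 44.2, 32.5 and 41.4 CPM in DMSO (-2.45 ± 0.24), and the related RND3 was at -2.45 ± 0.17. RHOA, which has 5 exons, was at 0.63 ± 0.10, with 1088 CPM in THZ1 4 h and 701 CPM in DMSO on average. Among aminoacyl-tRNA synthetases 14 of 36 were higher and 5 lower, and 8 were higher without THZ1 4 h replicate 1 and DMSO replicate 2, 2 under library totals and none with ribosomal protein mRNAs as the reference. Their mitochondrial members PARS2 and MARS2, with 2 and 1 exons, fell, PARS2 to 6 counts in THZ1 4 h against 276 in DMSO and MARS2 to 1.90, 2.12 and 2.0 CPM against 29.2, 24.0 and 25.7 CPM in DMSO (-3.71 ± 0.15). The cytosolic LARS, with 32 exons, had 341, 365 and 367 CPM in THZ1 4 h and 240, 240 and 243 CPM in DMSO (0.57 ± 0.08). The calls of RHOA, LARS, HYOU1 and HSP90AA1 were lost with ribosomal protein mRNAs as the reference.

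Other lists held changes in both directions, as did all genes tested (25.1% lower and 16.9% higher). In the integrated stress response 11 of 22 genes were lower and 3 higher (median -1.28), in RNA polymerase III and tRNA genes 14 of 25 lower and 2 higher (-0.63), and in mitosis 12 of 30 lower and 1 higher (-0.28). In DNA replication licensing and S phase 15 of 41 were lower (36.6%) and 9 higher (22.0%), with a median of -0.02, near that of all genes tested. Without the 2 libraries named above 4 were higher. In the nuclear pore 4 of 29 were lower (13.8%, against 25.1% of all genes tested) and 6 higher (20.7%, against 16.9%), with a median of 0.13. HNRNP genes, which bind nascent RNA, had 10 of 19 higher and 1 lower (0.40), lysosome and autophagy genes 15 of 36 higher and 2 lower (0.19), and hypoxia and glycolysis genes 18 of 28 higher and 5 lower (0.43). The last had 10 higher without THZ1 4 h replicate 1 and DMSO replicate 2. Under library totals 1 HNRNP gene, 6 lysosome and autophagy genes and 6 hypoxia and glycolysis genes were higher. With ribosomal protein mRNAs as the reference no gene of these 3 groups was called higher. In each of these lists the median was below 0 with ribosomal protein mRNAs as the reference.

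Single members of other groups fell to differing degrees, and some rose. They too were picked as the largest changes each way, so they say nothing of their groups as a whole. USP27X, a deubiquitinase with 1 exon, kept 4 counts against 251 in DMSO. FANCF, a single-exon gene of the Fanconi complex, was at -3.72 ± 0.20 and PALB2, which brings BRCA2 to DNA breaks, at -3.33 ± 0.23. CDC25A, the phosphatase that drives entry into S phase, was at -2.59 ± 0.14 and the mitotic kinase AURKA at -1.61 ± 0.10. The DNA polymerase alpha subunit POLA1 was at 0.76 ± 0.12. VPS18 of the endosomal tethering complexes was at -3.31 ± 0.23, RAB20 at -3.53 ± 0.20, and the helicases DDX20 and DDX28 at -3.28 ± 0.13 and -3.24 ± 0.21. NUP153 of the nuclear pore basket was at -2.08 ± 0.22. The deacetylases parted as well, with SIRT1 at -1.40 ± 0.14 and HDAC1 at 0.68 ± 0.08. POLA1 and HDAC1 lost their calls with ribosomal protein mRNAs as the reference.

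Among symbol roots, the letters of a symbol before its first digit, 153 had at least 10 protein-coding genes tested. The 5 with the lowest medians were SOX (-2.14), KLF (-2.10, 11 of 13 lower), ZSCAN (-2.06, 12 of 14), ZNF (-1.79) and ZFP (-1.48, 18 of 19). The 5 with the highest were ADAM (0.70, 6 of 10 higher), GALNT (0.58, 4 of 12), FKBP (0.51, 9 of 14), RPL (0.50, 28 of 48) and the mixed root S (0.50, 5 of 13 higher and 5 lower). ADAM genes encode membrane proteases, GALNT genes start mucin-type sugar chains, and FKBP genes encode prolyl isomerases. With ribosomal protein mRNAs as the reference the medians of RPL and S were below 0, at -0.01 and -0.03, and that of ADAM was 0.20. Without THZ1 4 h replicate 1 and DMSO replicate 2 8 of the 48 RPL genes and 2 of the 13 with root S were higher. In ADAM23 the levels were 11.2, 13 and 12.2 CPM in THZ1 4 h and 6.39, 7.47 and 5.77 CPM in DMSO (0.89 ± 0.15).

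Noncoding genes differed by class. Antisense genes had 125 of 645 lower and 15 higher (median -0.36) and long intergenic RNAs 114 of 564 lower and 15 higher (-0.32), shares under those of all genes tested. Processed pseudogenes are retrocopies of abundant messages and can share reads with them. Of these, 66 of 339 were higher (19.5%, near the 16.9% of all genes tested) and 8 lower (2.36%, against 25.1%), with a median of 0.49. Their higher calls were 29 without THZ1 4 h replicate 1 and DMSO replicate 2. There were 16 under library totals and 6 with ribosomal protein mRNAs as the reference. Of 23 snoRNA genes, most of which overlap a tested host gene, 9 were lower and none higher. SNORD6, within TAF1D, had 0 counts in THZ1 4 h and 67 in DMSO. SNHG3, the host transcript of a snoRNA, had 10.1, 9.18 and 7.12 CPM in THZ1 4 h and 41.5, 41.4 and 36.8 CPM in DMSO (-2.18 ± 0.16). RP4-758J18.2, RP11-357H14.17 and RNF216P1 were at -2.34, -2.29 and -2.22. Among noncoding genes averaging at least 5 CPM whose libraries did not overlap, the 4 largest rises were in pseudogene copies, MTCO1P12 (1.00), HMGN2P5 (0.98), MTND2P28 (0.98) and MTATP6P1 (0.98), whose reads may belong to their parent genes. All 4 lost their calls with ribosomal protein mRNAs as the reference.

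Against YKL-5-124 at the same dose and time, 3172 genes (21.9%) were lower in THZ1 4 h and 1649 (11.4%) were higher. With RLE scaling these counts were 2884 lower and 2524 higher, with DESeq2 3091 and 2833, with library totals 4168 and 199, and with ribosomal protein mRNAs as the reference 4460 and 26. The largest gaps were in genes that YKL-5-124 left near their DMSO level. ZNF627 had 0.664, 0.0530 and 0.186 CPM in THZ1 4 h, 13, 12.4 and 9.38 CPM in YKL-5-124 4 h and 10.7, 7.78 and 9.18 CPM in DMSO, a log2 difference between the compounds of -5.21 ± 0.40 (edgeR adjusted p 1.04e-07). HPS6 had 28.2, 25.1 and 30.0 CPM, FADD 20.6, 13.7 and 15.1 CPM and PPP1R10 25.3, 38.7 and 35.8 CPM in YKL-5-124 4 h, and the differences of THZ1 4 h from these were -5.00, -4.57 and -4.46. All 15 of the largest falls against DMSO were also called lower against YKL-5-124 4 h, and 3 of the 15 were called in YKL-5-124 4 h against DMSO. The comparisons with DMSO share the same control libraries.

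Those 3 were DUSP1, ADM and JUN. In YKL-5-124 4 h DUSP1 had 33.1, 25.6 and 23.2 CPM, ADM 118, 86.8 and 109 CPM and JUN 44.3, 54.7 and 70.0 CPM, each below every DMSO library and above every THZ1 4 h library. Their log2 fold changes in YKL-5-124 4 h against DMSO were -1.15, -1.55 and -1.15 (edgeR adjusted p 0.0130, 0.000240 and 0.00829). PLK2 stood likewise at 107, 77.3 and 76.4 CPM (-1.34). TNFRSF10D had 39.4, 43.3 and 34.5 CPM in YKL-5-124 4 h (1.22 against DMSO, edgeR adjusted p 0.00601). Higher in THZ1 4 h than in YKL-5-124 4 h were SESN1 (1.16 ± 0.22), the Golgi protein TVP23C (1.08 ± 0.22), the early response gene IER3 (1.06 ± 0.25) and ULK4 (0.90). IER3 had 68.3, 62.2 and 52.0 CPM in THZ1 4 h, 38.9, 23.2 and 25.6 CPM in YKL-5-124 4 h and 59.3, 37.5 and 59.6 CPM in DMSO, so it was not called in THZ1 4 h against DMSO (0.22 ± 0.24, edgeR adjusted p 0.49).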

How the data were processed

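RNA sequencing of PATU-8988T cells gave 1 table in which the authors deposited raw counts per gene, with no normalization. The submitters' processing notes name the GRCh38 build, featureCounts 1.5.0-p3, STAR 2.6.1d and DESeq2 1.24.0, and no source used here states whether counting used the strand. Groups and replicate numbers came from the labels. Of 58676 genes, 14461 were kept by filterByExpr, at a minimum count of 10 and a minimum total of 15. They hold 99.9% of the counts, and 5132 of them overlap another tested gene. Differences were tested with the quasi-likelihood F test of edgeR 4.0.16 (with limma 3.58.1 in R 4.3.3), with all 15 libraries in a single fit by group and TMM scaling. P-values were adjusted by Benjamini-Hochberg over the genes tested, at a threshold of 0.05, and the script was tested on simulated data. CPM values use TMM-scaled totals of the genes tested, and errors of log2 fold changes are standard errors. DESeq2 1.42.0 and other scalings, filters and leave-outs were alternatives. All pairs of replicates differed beyond sampling noise, with a chi-square per degree of freedom of 4.72 to 82.4.

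Gene lists, families, biotypes and bins are described by counts of calls and medians, with no test. The 38 lists and 63 families, like the rules, were chosen with earlier results of these data known. The rule for named genes took the 15 largest falls and 15 largest rises among called protein-coding genes averaging 5 CPM or more whose libraries do not overlap. It also took the 8 largest falls and 8 largest rises from 200 CPM in DMSO, 4 noncoding genes each way, and up to 2 called members in each direction of a list or family averaging 1 CPM or more. It also took the 5 lowest and 5 highest symbol roots, CDK7, CDK12 and CDK13, and the 4 largest differences each way from YKL-5-124 4 h. Not all genes that the rule names are printed. Genes named beside promoters, markers and the highest level were chosen otherwise. Exon numbers came from GENCODE 29, which holds 100% of the IDs, 95.3% of them at the same position, and promoter sequences from RefSeq. Analysis used Python 3.11.15, pandas 2.3.3 and matplotlib 3.10.9.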

Additional observations from a re-analysis of the deposited data

How the results depend on the processing

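The counts of higher genes followed the scaling and the libraries. In place of 2439 higher genes there were 583 under library totals, 29 with ribosomal protein mRNAs as the reference and 4034 with each library's length slope as a covariate. In place of 3630 lower genes there were 5512 with ribosomal protein mRNAs as the reference. In place of 109 genes at least 2-fold higher there were 38 under library totals, 27 with ribosomal protein mRNAs, 173 with DESeq2 and 35 with a stricter filter, 83 to 248 when leaving out 1 library in turn (187 without THZ1 4 h replicate 1 and 248 without DMSO replicate 2), and 549 without both. In place of 2458 genes at least 2-fold lower there were 3816 with ribosomal protein mRNAs as the reference. Against YKL-5-124 4 h, in place of 1649 higher genes there were 2524 with RLE scaling, 2833 with DESeq2, 199 under library totals, 26 with ribosomal protein mRNAs, and 1000 to 1516 when leaving out 1 library in turn (1018 without THZ1 4 h replicate 3 and 1000 without YKL-5-124 4 h replicate 3). Apart from the length slope and the filter, whose construction changes the model or the genes tested, the cause was not tested. The settings without 2 libraries, and the subsets of exon bins without zinc finger families, were chosen after seeing the data. Without those 2 libraries, the ones left differ by group in length slope.

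The other counts stayed within 1.5 times: lower genes between 3081 and 4631 over the other settings, and at least 2-fold lower between 2106 and 3110. With a replicate block there were 3078 higher and 3933 lower genes, and against YKL-5-124 4 h 2347 higher and 3515 lower. The samples share only a number: deviations of THZ1 4 h and DMSO libraries of the same number correlated at 0.43, 0.53 and -0.15 across genes, and replicate 3 correlated better with another number. Of 131 called genes followed through every setting, 86 of the 89 lower ones and 2 of the 42 higher ones (TNFRSF10D and SESN1) kept their calls throughout, and none changed sign. Among the lower ones, CDK7, CDK12 and CDK13 lost theirs. Depth limits genes of a few counts, where a single library sets the fold.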

Other observations

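A small set of genes rose steeply from almost nothing. They were picked out after their values were seen. Of the 14461 genes, 27 were at least 4-fold higher in THZ1 4 h than in DMSO, all of them scarce: the highest level in any THZ1 4 h library was 3.13 CPM and the median of the means was 0.557 CPM. Protein-coding genes were 9 of the 27 (33.3%, against 54.3% of tested genes under 2 CPM). A single exon was annotated in 16 of them (59.3%, against 23.7% of tested genes under 2 CPM), and 5 lay inside a protein-coding tested gene on the same strand (18.5%, against 5.55% of tested genes under 2 CPM). Within 10000 bases downstream of a protein-coding tested gene lay 3 (11.1%, against 15.8% of tested genes under 2 CPM). Of the 27, 17 kept the call in every fit that tested them. The low-count filter ran over all 5 groups, so a gene scarce in both THZ1 4 h and DMSO could be tested only where another group was higher, and the THZ1 24 h levels below are a description.

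CHMP4BP1, a pseudogene inside FBXO34, had 1.52, 2.44 and 1.63 CPM in THZ1 4 h and 1 count over the 3 DMSO libraries, a ratio of 133 with an exact 95% interval of 23.3 to 5286 (counting error only). HUS1B, a single-exon gene inside EXOC2, had 1.23, 0.902 and 0.605 CPM in THZ1 4 h and 0.483, 0.204 and 0.209 CPM in THZ1 24 h, against 0.0854 CPM on average in DMSO. FAM166A had 0.759, 0.796 and 0.884 CPM in THZ1 4 h and 7.85, 10.8 and 9.60 CPM in THZ1 24 h, against 0.0539 CPM on average in DMSO. SNX32, a sorting nexin, had 0.427, 1.33 and 0.558 CPM in THZ1 4 h and 11.4, 18.8 and 18 CPM in THZ1 24 h, against 0.179 CPM on average in DMSO. CTB-96E2.6 had 0.332, 0.212 and 0.419 CPM in THZ1 4 h and 142, 123 and 106 CPM in THZ1 24 h, against 0 counts in DMSO. HUS1B was thus higher at 4 h than at 24 h in every library, and FAM166A, SNX32 and CTB-96E2.6 lower. The part that reads of the surrounding gene take in these values was not tested.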
